A study of Mus musculus with 21 samples.

Results

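The 39 genes described here carry fatty acids into the heart muscle cell, store them, and burn them in mitochondria. They were chosen by name out of the 20960 genes in the count table, and the rule uses no measured value: 6 uptake genes, 5 genes of activation and the carnitine shuttle, 4 of storage and lipolysis, 13 of beta oxidation proper, 3 subunits or partners of the electron transfer flavoprotein, 3 thioesterases, 4 genes of fuel switching and uncoupling, and Hsdl2, a hydroxysteroid dehydrogenase-like protein. They were measured by bulk RNA sequencing in the hearts of male, adult, wild type animals. Polystyrene nanoplastics had been given to 4 mice over 8 weeks, and 3 control mice had received distilled water. Every heart was cut into 3 sections (atrial, right ventricular, left ventricular), with a library for each. The labels used here give no strain, age in numbers, dose or particle size, and no group carries a genetic change. The mice of a group are separate animals, and the 3 sections of a mouse are not independent of each other.

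The adult heart draws most of its energy from fatty acids. Lipoprotein lipase frees them from circulating triglyceride, CD36 and transport proteins bring them across the membrane, and small binding proteins carry them through the cytosol. They are then linked to coenzyme A, passed into mitochondria by the carnitine palmitoyltransferases, and shortened in repeated rounds by chain-length-specific dehydrogenases, hydratases and thiolases. The electrons are handed on through the electron transfer flavoprotein. The nuclear receptor PPARα is known to switch on many of these genes.

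Library totals ranged between 413436 and 2439314 counts, except for the right ventricular library of nanoplastics mouse 2, which held 4662. A single count in that library is worth 214.5 CPM (a gene's counts as a share of the library, on the usual fixed scale), so it was left out of every comparison that uses right ventricular libraries singly. It was kept in the whole heart values, which are sums over the sections of a heart. The summed heart muscle markers ran between 30230 and 54600 CPM over all libraries, but the atrial label was not evenly borne out: the summed atrial muscle markers ran between 29.3 and 63890 CPM in the nanoplastics atrial libraries and between 211.7 and 642.8 CPM in the control atrial libraries, and Bmp10, a defining atrial gene, had a median under 1 CPM. In left ventricular libraries the atrial muscle sum ran between 67.46 and 2248 CPM with nanoplastics and between 50.75 and 331.4 CPM in controls. The right ventricular libraries kept ran between 334.6 and 495.4 CPM and between 125.6 and 287.3 CPM, in the same order. All control atrial libraries thus lay within the range of the ventricular libraries. The sections are therefore named by their labels, and comparisons of sections are comparisons of labels. In bulk tissue, fewer cells of a type and less RNA per cell cannot be told apart.

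None of the 39 genes passed the test between nanoplastics and control hearts, in the whole heart or in any section. In the whole heart 37 of them had enough counts to test, and 0 were called at an adjusted p under 0.05 by the quasi-likelihood test of edgeR, 0 by DESeq2, and 1, Acot13, by limma when the libraries of a mouse were kept apart. Over all 8485 genes tested, edgeR called 1.79% higher and 0.766% lower in nanoplastics hearts. Over all genes DESeq2 called 284 higher and 49 lower, and limma on the separate libraries called 322 higher and 160 lower. Without adjustment, 9 of the 37 had a p under 0.05, 6 with a positive and 3 with a negative change, against 18.2% of all genes. The fitted changes were positive for 21 and negative for 16 of the 37, with a median of 0.10 on the log2 scale against -0.03 over all genes tested. Without nanoplastics mouse 4 the split was 18 to 18 and the median 0.00. Over the 31 genes with a mean of at least 50 counts it was 15 positive and 16 negative with a median of -0.01.

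With the scaling used here, the measurements bound most of these genes closely. The 95% interval of the change lay within 2-fold in both directions for 34 of the 37, and within 1.5-fold for 22 of the 37. Over all genes tested those shares were 81.8% and 32.8%. The median standard error was 0.151 for the 37 and 0.219 for all genes, on the log2 scale. The intervals cover the spread between these 7 mice and not the choice of scaling. With library totals alone the median change of the 37 was -0.14, and that of all genes was -0.27.

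**Figure D1:**
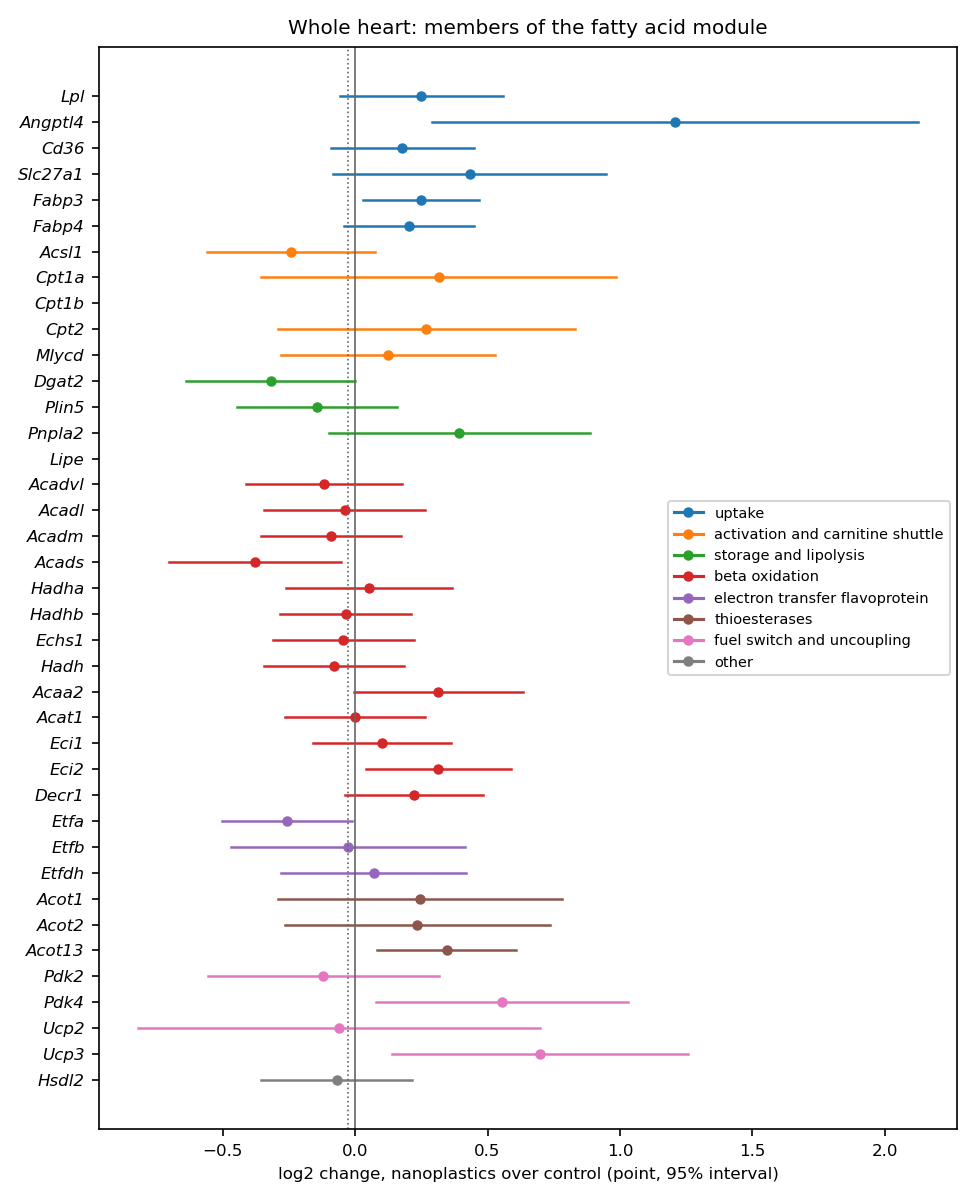
Change of each of the 39 genes in the whole heart, nanoplastics over control, on a log2 scale, with the 95% interval; colours are roles, the dotted line is the median of all genes tested (-0.03), and genes with no point (Cpt1b and Lipe) were not tested. Most points lie within 0.5 of no change, and the widest intervals belong to genes with few counts such as Angptl4 and Ucp2.

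Among the uptake genes all 6 had positive fitted changes, with a median of 0.25, and none was called. With library totals alone, which move the median of all genes to -0.27, 4 of the 6 were positive and their median was 0.00. Fabp3, the fatty acid binding protein of heart muscle cytosol, stood at 9124, 9499, 8425 and 8700 CPM in nanoplastics hearts, against 8066, 7366 and 7138 CPM in control hearts. The groups did not overlap, and the change was 0.25 ± 0.11 (SE, log2) with an adjusted p of 0.208. Groups of mice failed to overlap for 4 of the 37 genes in the higher direction (Fabp3, Fabp4, Eci2 and Decr1) and for 1, Etfa, in the lower direction, while 7.88% and 8.17% of all genes tested did so in those directions.

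The Fabp3 difference also moved with transcript length. Counts of the nanoplastics hearts came from genes with shorter transcripts in these mice. Mitochondrially encoded genes and genes without a known length were left out of this measure. The median count then came from a gene with a longest annotated transcript of 1526 ± 57.6 nt in nanoplastics hearts and 1739 ± 44.1 nt in control hearts (SD, 4 and 3 mice). An exact permutation test, two-sided, gave p = 0.0286, the smallest that 35 splits allow, and 0.64 after adjustment over 48 library measures. Fabp3 has a transcript of 823 nt. With each library's trend on transcript length removed, its change was 0.00, and with library totals alone, where the median of all genes is -0.27, it was also 0.00. The share of all counts that fell on Fabp3 was 0.825 ± 0.0416% in nanoplastics hearts and 0.822 ± 0.00757% in control hearts. Across all genes tested the rank correlation of transcript length with the fitted change was -0.262 in the whole heart, and across the 37 genes it was 0.0941, where genes of the same libraries share depth and scaling and are not independent.

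Fabp4, the binding protein of fat cells and capillary endothelium, was at 1223, 1061, 1123 and 1080 CPM in nanoplastics hearts, against 977.5, 1006 and 940.1 CPM in control hearts. Its groups did not overlap, with a change of 0.20 ± 0.12 (SE, log2). With library totals alone the Fabp4 change was -0.05. Marker sums were taken on library totals, so they are not on the scale of the Fabp4 levels above. The summed endothelial markers stood at 218.7 ± 23.0 CPM in nanoplastics hearts and 254.9 ± 26.5 CPM in control hearts (SD, n = 4 and 3). The summed white fat cell markers stood at 94.9 ± 19.1 CPM in nanoplastics hearts and 113.9 ± 31.1 CPM in control hearts. The part of these cell types in the Fabp4 result was not tested. Of the 8 fat cell markers, Adipoq, Plin1, Cidec, Retn and Lep had medians under 1 CPM over the libraries.

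Lpl, lipoprotein lipase, stood at 1965, 1648, 1833 and 2778 CPM in nanoplastics hearts, against 1619, 1812 and 1761 CPM in control hearts. Cd36, the fatty acid translocase, stood at 1190, 1470, 1413 and 1061 CPM in nanoplastics hearts, against 1145, 1126 and 1135 CPM in control hearts. Both genes were more variable among nanoplastics mice than among controls and the groups overlapped. The SD of Lpl was 498.9 CPM in nanoplastics hearts and 100.1 CPM in control hearts, and that of Cd36 was 191.2 CPM in nanoplastics hearts and 9.78 CPM in control hearts. Slc27a1, a fatty acid transport protein, was at 9.30 ± 2.80 CPM in nanoplastics hearts and 6.97 ± 0.85 CPM in control hearts (SD).

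Angptl4, a secreted inhibitor of lipoprotein lipase and a textbook PPAR target, had the largest fitted change of the 37, 1.21 ± 0.43 (SE, log2; adjusted p = 0.145). It stood at 2.26, 2.77, 7.30 and 10.04 CPM in nanoplastics hearts, against 1.77, 2.90 and 3.18 CPM in control hearts. Nanoplastics mice 3 and 4 were above all controls and mice 1 and 2 were within the control range. Its libraries held between 0 and 24 counts, so this gene carries the widest error of the group.

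The entry into mitochondria could be followed through few counts. Cpt1b, the carnitine palmitoyltransferase of heart muscle, had 4 counts in all, spread over 3 control libraries, and none in the nanoplastics libraries, and it was not tested. In the GENCODE M21 annotation it shares its strand with the overlapping gene Gm44502, and how reads shared by overlapping genes were counted is not given in the sources used here. Its level is therefore not known from this table. Cpt1a, the liver form, stood at 5.65, 4.62, 6.94 and 5.17 CPM in nanoplastics hearts, against 2.83, 3.81 and 7.81 CPM in control hearts, and its groups overlapped.

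Cpt2, the inner-membrane carnitine palmitoyltransferase, stood at 72.7, 64.7, 55.1 and 122.5 CPM in nanoplastics hearts, against 51.6, 66.9 and 80.2 CPM in control hearts. Nanoplastics mouse 4 was above every other mouse, and the change was 0.27 ± 0.25 (SE, log2). Acsl1, the acyl-CoA synthetase that activates long-chain fatty acids, had a mean of 154.6 ± 25.9 CPM in nanoplastics hearts and 183.7 ± 36.2 CPM in control hearts. Mlycd, malonyl-CoA decarboxylase, which relieves the block on carnitine palmitoyltransferase, averaged 25.0 ± 6.18 CPM in nanoplastics hearts and 23.4 ± 3.65 CPM in control hearts (SD, n = 4 and 3).

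Storage and lipolysis genes gave no call either. Dgat2, which makes triglyceride, was at 49.0, 44.8, 66.8 and 60.3 CPM in nanoplastics hearts, against 76.3, 68.8 and 62.2 CPM in control hearts. All but nanoplastics mouse 3 lay below the control range, with a change of -0.32 ± 0.15 (SE, log2; adjusted p = 0.274). Plin5, the lipid droplet coat protein of oxidative tissue, stood at 52.0, 61.0, 66.4 and 74.6 CPM in nanoplastics hearts, against 70.8, 66.0 and 74.7 CPM in control hearts, and overlapped. Pnpla2, the triglyceride lipase ATGL, averaged 38.8 ± 14.1 CPM in nanoplastics hearts and 30.1 ± 4.98 CPM in control hearts, and Lipe, the hormone-sensitive lipase, was at 2.52 ± 0.676 CPM in nanoplastics hearts and 2.62 ± 0.35 CPM in control hearts (SD) and was not tested.

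The 13 beta oxidation genes were centred on no change, with 5 positive and 8 negative fitted changes and a median of -0.04 on the log2 scale. Acadvl, the very-long-chain acyl-CoA dehydrogenase, stood at 369.2, 447.2, 538.0 and 464.3 CPM in nanoplastics hearts, against 473.5, 449.5 and 559.9 CPM in control hearts. Acadm, the medium-chain dehydrogenase, stood at 1956, 1811, 1881 and 1757 CPM in nanoplastics hearts, against 1994, 1614 and 2314 CPM in control hearts. Hadha, the alpha subunit of the trifunctional protein, stood at 677.7, 543.3, 553.0 and 719.7 CPM in nanoplastics hearts, against 554.3, 500.4 and 751.1 CPM in control hearts. For all 3 the groups overlapped, and the control range covered every nanoplastics mouse for Acadm and Hadha and 2 of 4 for Acadvl.

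Its partner subunit Hadhb had a change of -0.04, with a 95% interval between -0.28 and 0.21 (log2). Acads, the short-chain dehydrogenase, stood lower by its fitted change, at 35.0, 36.0, 45.3 and 33.3 CPM in nanoplastics hearts, against 54.7, 48.3 and 42.2 CPM in control hearts (-0.38 ± 0.16, SE, log2; adjusted p = 0.196). Only nanoplastics mouse 3 reached into the control range.

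The auxiliary enzymes that let unsaturated fatty acids into the cycle had fitted changes of the other sign. Eci2, an enoyl-CoA isomerase, was at 415.5, 452.3, 440.2 and 363.6 CPM in nanoplastics hearts, against 363.3, 315.4 and 329.6 CPM in control hearts (0.31 ± 0.13, SE, log2; adjusted p = 0.201). Decr1, the dienoyl-CoA reductase, was at 366.9, 387.6, 396.4 and 370.2 CPM in nanoplastics hearts, against 348.9, 319.1 and 309.3 CPM in control hearts (0.22 ± 0.13, SE, log2). The groups did not overlap for either gene, with nanoplastics mouse 4 and control mouse 1 almost level for Eci2. With library totals alone their changes were 0.07 for Eci2 and -0.02 for Decr1, against a median of -0.27 over all genes. Eci1 had means of 867.0 ± 72.6 CPM in nanoplastics hearts and 808.5 ± 75.8 CPM in control hearts (SD).

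The remaining enzymes of the spiral had unadjusted p-values above 0.05. Acadl, the long-chain dehydrogenase, averaged 786.8 ± 143.1 CPM in nanoplastics hearts and 809.6 ± 110.0 CPM in control hearts. Echs1, the short-chain hydratase, averaged 503.0 ± 48.2 CPM in nanoplastics hearts and 519.2 ± 25.9 CPM in control hearts. Hadh, the short-chain hydroxyacyl dehydrogenase, averaged 387.0 ± 25.0 CPM in nanoplastics hearts and 409.2 ± 27.5 CPM in control hearts. The groups overlapped for all 3. Acat1, the acetoacetyl-CoA thiolase, averaged 799.6 ± 56.2 CPM in nanoplastics hearts and 800.9 ± 100.6 CPM in control hearts. Acaa2, the medium-chain thiolase, averaged 1041 ± 138.2 CPM in nanoplastics hearts and 838.2 ± 206.6 CPM in control hearts, with a 95% interval of its change that reached just below 0 (SD, n = 4 and 3).

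Etfa, the alpha subunit of the electron transfer flavoprotein, was at 1276, 1393, 1573 and 1316 CPM in nanoplastics hearts, against 1684, 1595 and 1705 CPM in control hearts. All nanoplastics mice lay below all controls, by -0.26 ± 0.12 (SE, log2), and the adjusted p was 0.252. Its partner Etfb averaged 134.5 ± 21.7 CPM in nanoplastics hearts and 136.5 ± 51.8 CPM in control hearts, and the dehydrogenase Etfdh averaged 351.6 ± 46.5 CPM in nanoplastics hearts and 335.8 ± 100.5 CPM in control hearts (SD). Controls varied more than nanoplastics mice in both partners.

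Thioesterases split acyl-CoA back into free acid. Acot13, a mitochondrial thioesterase, had the smallest adjusted p of the 37, 0.141, at 1740, 1564, 1540 and 1358 CPM in nanoplastics hearts, against 1358, 1196 and 1107 CPM in control hearts (0.35 ± 0.13, SE, log2). Only nanoplastics mouse 4 and control mouse 1 met. Acot13 has a transcript of 721 nt, and with the trend on transcript length removed its change was 0.05 with an adjusted p of 0.859, within a range of 0.00611 to 0.859 over 19 alternatives. Acot1 stood at 7.91, 4.62, 6.94 and 10.04 CPM in nanoplastics hearts, against 7.06, 5.99 and 6.08 CPM in control hearts, and Acot2 at 12.4, 12.9, 13.1 and 22.1 CPM in nanoplastics hearts, against 12.4, 9.80 and 18.2 CPM in control hearts. Both overlapped, and these neighbours are close paralogs whose reads may have been split between them.

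Of the 4 genes of fuel switching and uncoupling, Pdk4 and Ucp3 had positive fitted changes and Pdk2 and Ucp2 negative ones. Pdk4, the kinase that turns pyruvate dehydrogenase off, was at 23.4, 15.7, 20.4 and 35.0 CPM in nanoplastics hearts, against 17.0, 12.9 and 19.96 CPM in control hearts (0.56 ± 0.23, SE, log2; adjusted p = 0.195). Ucp3, a mitochondrial carrier linked to fatty acid handling, was at 9.42, 6.47, 17.2 and 17.2 CPM in nanoplastics hearts, against 8.47, 7.98 and 7.23 CPM in control hearts (0.70 ± 0.27; adjusted p = 0.164). Nanoplastics mouse 2 was the lowest of all mice for Ucp3 and within the control range for Pdk4. Pdk2 averaged 29.3 ± 10.6 CPM in nanoplastics hearts and 32.5 ± 0.455 CPM in control hearts, and Ucp2 averaged 6.86 ± 4.75 CPM in nanoplastics hearts and 7.16 ± 1.14 CPM in control hearts. Hsdl2 averaged 236.7 ± 29.6 CPM in nanoplastics hearts and 248.5 ± 23.6 CPM in control hearts (SD, n = 4 and 3).

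**Figure D2:**
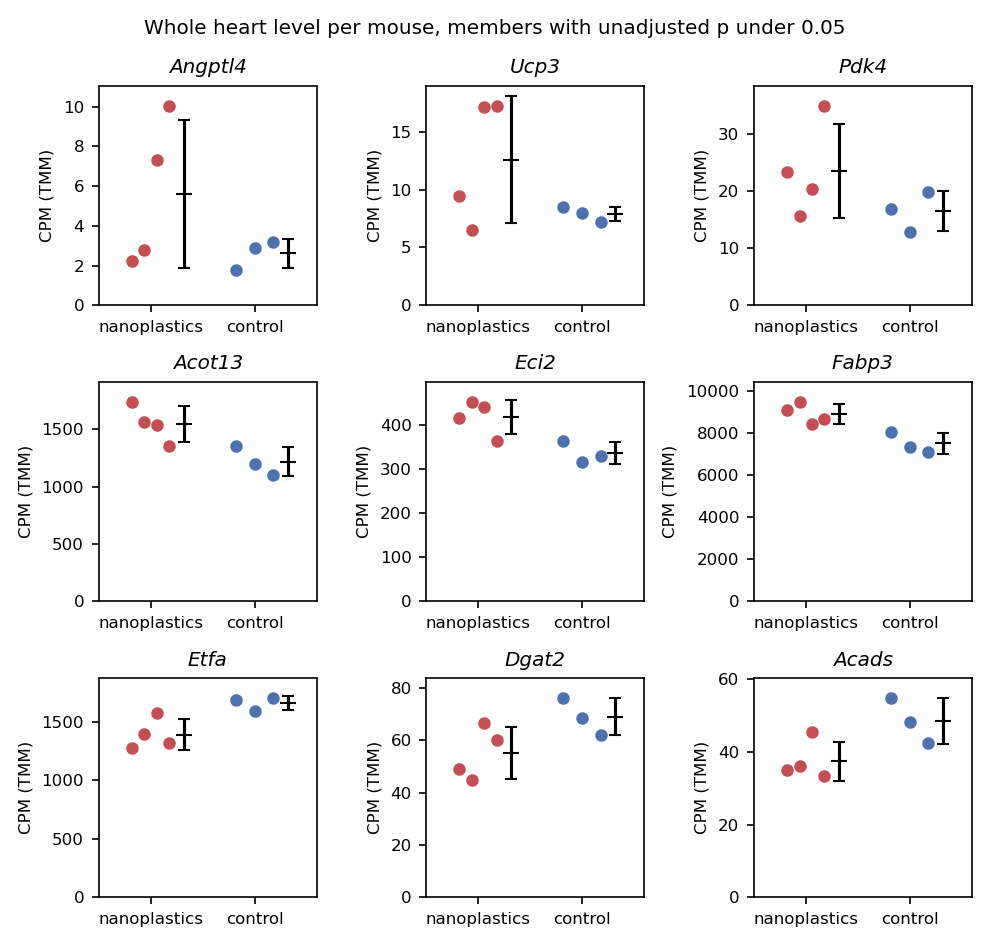
Whole heart level of the 9 genes with an unadjusted p under 0.05, in CPM after scaling by the trimmed mean of M-values, with each point a mouse and bars the mean and SD (n = 4 nanoplastics and 3 control mice). The groups of Fabp3, Eci2 and Etfa do not overlap, and those of the other 6 genes do.

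The neighbouring genes of the pathway were listed separately, 122 genes in 9 lists, of which 101 were tested in the whole heart. Among them 1 was called higher and 5 lower in nanoplastics hearts, with 39 positive and 62 negative fitted changes and a median of -0.09 (log2). The only call among the 19 regulators was Ppara, the gene of PPARα. It stood at 4.90, 5.54, 6.57 and 3.44 CPM in nanoplastics hearts, against 13.6, 12.3 and 11.3 CPM in control hearts, a change of -1.31 ± 0.24 (SE, log2; adjusted p = 0.0183). Every nanoplastics mouse lay below every control mouse.

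Ppara fell, and textbook targets of PPARα among the 39 genes did not pass the test. Among examples of such targets, the fitted changes of Angptl4, Pdk4 and Ucp3 were positive and those of Acadm, Acadvl and Plin5 negative. The examples are not a full list of targets, and over the 37 genes tested 21 changes were positive and 16 negative. Whether these changes depend on PPARα was not tested. Ppargc1a, its coactivator, was at 26.4, 29.6, 30.3 and 31.0 CPM in nanoplastics hearts, against 29.1, 26.1 and 42.5 CPM in control hearts. Slc25a20, the carnitine-acylcarnitine carrier, was at 71.95, 79.0, 74.5 and 97.3 CPM in nanoplastics hearts, against 91.3, 87.8 and 101.0 CPM in control hearts. Slc22a5, the carnitine importer, was at 7.16, 7.39, 4.02 and 5.45 CPM in nanoplastics hearts, against 5.12, 7.26 and 6.66 CPM in control hearts. All 3 overlapped between groups.

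The other calls came from the edges of the pathway. Ech1, which acts on dienoyl-CoA in mitochondria and peroxisomes, rose to 3727, 3458, 3442 and 3837 CPM in nanoplastics hearts, against 2886, 2427 and 2579 CPM in control hearts (0.46, log2; adjusted p = 0.0396). Bdh1, the ketone body dehydrogenase, fell to 28.3, 45.3, 41.3 and 49.1 CPM in nanoplastics hearts, against 62.0, 75.3 and 65.4 CPM in control hearts (-0.72; adjusted p = 0.0307). Acss1, the mitochondrial acetyl-CoA synthetase, fell to 21.5, 29.1, 41.3 and 37.6 CPM in nanoplastics hearts, against 56.0, 59.3 and 48.0 CPM in control hearts (-0.75; adjusted p = 0.0365). Groups did not overlap in any of these genes.

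Hibadh, a valine catabolism enzyme listed with the mitochondrial oxidation genes, fell to 169.9, 167.3, 191.6 and 169.9 CPM in nanoplastics hearts, against 309.0, 234.0 and 226.8 CPM in control hearts (-0.56; adjusted p = 0.0374). Acaa1a, the peroxisomal thiolase, fell to 15.5, 17.1, 12.8 and 17.8 CPM in nanoplastics hearts, against 24.4, 23.9 and 30.1 CPM in control hearts (-0.71; adjusted p = 0.0408). The 6 genes do not share a single step. With the trend on transcript length removed, the only call left was Ppara (-1.24), and calls over all genes fell to 39 higher and 21 lower. The changes of the other genes there were -0.66 for Bdh1, -0.67 for Acss1, -0.63 for Acaa1a, -0.46 for Hibadh and 0.36 for Ech1. Without control mouse 2 no gene of any kind was called, and the changes were -1.31 for Ppara, -0.62 for Bdh1, -0.67 for Acss1, -0.77 for Acaa1a, -0.61 for Hibadh and 0.41 for Ech1.

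**Figure D3:**
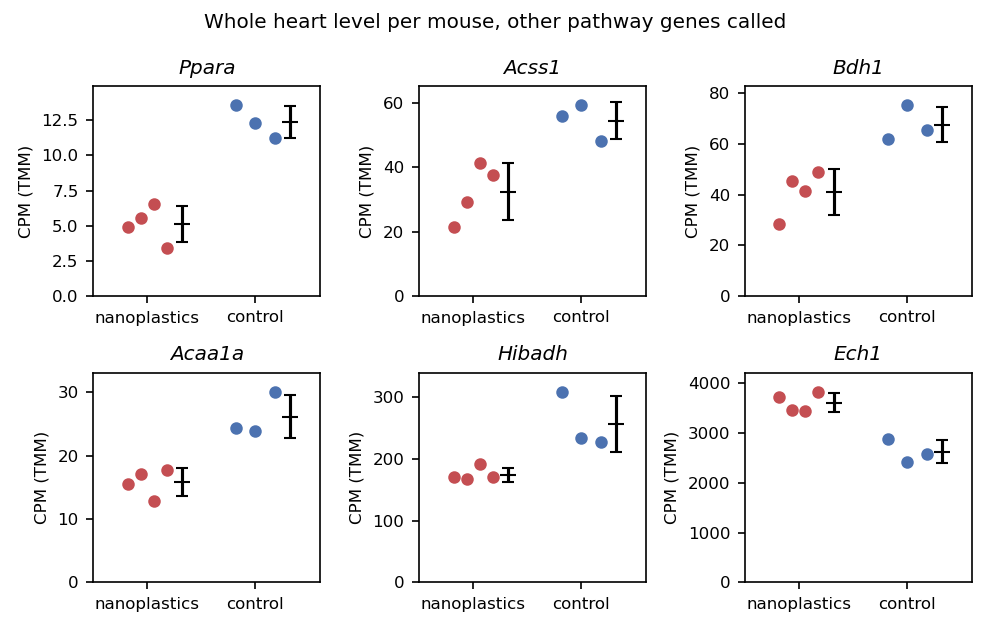
Whole heart level of the 6 other pathway genes that passed the test, in CPM after scaling by the trimmed mean of M-values, with each point a mouse and bars the mean and SD (n = 4 nanoplastics and 3 control mice). Ech1 is higher and Ppara, Acss1, Bdh1, Acaa1a and Hibadh are lower in every nanoplastics mouse than in every control mouse.

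PPARα binds DNA at repeats of AGGTCA, so the promoters of the 39 genes were searched for those 6 letters on both strands in the 250 bases before the annotated start (RefSeq, GRCm38.p6). Of the 30 genes with a promoter sequence in the table used, 7 held the motif (23.3%), against 15.8% of 27025 genes. A repeat of the motif with 1 base between the copies and any base allowed in the fourth place of each was in 0 of the 30 and in 0.4% of all genes. A match is a description of letters and not evidence of binding. Stretches of 4 of these 7 promoters are shown, those of Acadm, Acadvl, Plin5 and Ucp3. They hold the motif and belong to the example targets named above, which are not a full list of targets. Cd36, Cpt1a and Echs1 also held the motif and are not shown. Of the other example targets, Pdk4 had a promoter in the table without the motif, and Angptl4 is not in the table. The motif is in capitals on the gene's strand, where TGACCT is the motif on the other strand, and the second of the 2 copies found for Ucp3 lies outside the stretch printed. The stretches printed lie at chr3:153944860-153944893 for Acadm, chr11:70015483-70015542 for Acadvl, chr17:56117686-56117745 for Plin5 (all on the minus strand) and chr7:100472815-100472874 for Ucp3 (plus strand).
Acadm: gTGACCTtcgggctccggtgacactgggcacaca
Acadvl: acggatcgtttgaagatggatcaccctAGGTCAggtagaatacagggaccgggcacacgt
Plin5: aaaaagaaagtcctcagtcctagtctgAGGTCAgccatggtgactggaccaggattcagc
Ucp3: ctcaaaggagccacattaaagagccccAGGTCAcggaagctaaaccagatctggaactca

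Within single sections the treatment comparison again called none of the genes. In the atrial section 32 were tested, with 16 positive and 16 negative changes. Of these, 1 had an unadjusted p under 0.05, Pdk4 (0.89 ± 0.38, SE, log2; adjusted p = 0.374), against 12.3% of all genes. No gene of the 5502 tested was called there by edgeR, 0% in each direction, and DESeq2 called 93 higher and 1 lower, none of them among these genes. In the right ventricular section 31 were tested, 14 positive and 17 negative, and 2 had an unadjusted p under 0.05, both lower, against 14.6% of all genes. Of all 5201 genes 1.12% were called higher and 0.192% lower there.

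Those 2 were Etfa and Acads. Etfa stood at 1187, 1606 and 1142 CPM in nanoplastics right ventricles, against 1761, 1672 and 1951 CPM in control right ventricles (-0.47 ± 0.18, SE, log2; adjusted p = 0.169). Acads stood at 28.1, 37.6 and 29.3 CPM in nanoplastics right ventricles, against 61.2, 39.9 and 44.6 CPM in control right ventricles (-0.60 ± 0.27; adjusted p = 0.287). Neither pair of groups overlapped, but the share of all genes without overlap was not taken in this section, so no weight is put on it. Without nanoplastics mouse 3, the count of calls there was 3, with Cpt2 (0.91) and Pnpla2 (1.07) higher and Etfa (-0.65) lower, and 2 nanoplastics mice are left. Over all genes the calls in that setting were 222 higher and 104 lower, against 58 and 10 with the mouse included.

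In the left ventricular section 32 were tested, 19 positive and 13 negative, and 5 had an unadjusted p under 0.05, against 14.1% of all genes: Acot13 and Eci2 higher, Dgat2, Etfa and Acads lower. The smallest adjusted p was 0.205 for Dgat2 (-0.53 ± 0.20, SE, log2), at 48.8, 40.6, 57.3 and 60.3 CPM in nanoplastics left ventricles, against 81.6, 74.1 and 58.5 CPM in control left ventricles. Nanoplastics mouse 4 overlapped control mouse 3. Of all 5440 genes 0.0368% were called higher and 0.0184% lower. DESeq2 called none of the 39 genes in either ventricle.

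Whether the nanoplastics effect differed between sections could be tested for 35 of the genes, and none was called in either comparison. Between atrial and left ventricular sections 0% of 6175 genes were called in either direction, and between right and left ventricular sections 0.0161% were called with a larger effect in the right ventricle and 0% with a smaller one. Ucp3 was the only 1 of the 35 with an unadjusted p under 0.05 between atrial and left ventricular sections, against 4.28% of all genes. It had an effect larger by 1.59 ± 0.54 in the atrial section (SE, log2; adjusted p = 0.984). It stood at 6.16, 8.06, 26.6 and 22.5 CPM in nanoplastics atrial libraries, against 7.04, 4.38 and 5.40 CPM in control atrial libraries, and at 10.6, 4.39, 16.1 and 9.27 CPM in nanoplastics left ventricular libraries, against 7.94, 12.8 and 14.05 CPM in control left ventricular libraries. The atrial library was above the left ventricular library in nanoplastics mice 2, 3 and 4 and below it in all 3 control mice and nanoplastics mouse 1. In the right against the left ventricle 2 of the 35 had an unadjusted p under 0.05, Hsdl2 (-0.50) and Acadm (-0.34), against 4.95% of all genes.

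Between atrial and left ventricular sections of the same animals none of the genes was called. Of 31 genes tested, 20 had a negative and 11 a positive change, with a median of -0.12 against 0.01 over all 5176 genes, of which 0.155% were called higher and 0% lower in the atrial section. With library totals alone the split was 16 negative and 15 positive and the median over all genes was 0.12. Without nanoplastics mouse 1 it was 16 negative and 15 positive, with a median of -0.06. By unadjusted p, 6 of the 31 were under 0.05, against 12.6% of all genes, and 5 of them were lower: Fabp3, Cd36, Hsdl2, Acadm and Hadh. DESeq2 called 0.

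Fabp3 ran between 6296 and 9264 CPM in the 7 atrial libraries, with a median of 7282, against 7393 to 10800 CPM, with a median of 9370, in the 7 left ventricular libraries (-0.27 ± 0.09, SE, log2; adjusted p = 0.232). Cd36 ran between 624.6 and 1393 CPM with a median of 1030 in atrial libraries, against 1006 to 1587 CPM with a median of 1311 in left ventricular libraries (-0.32 ± 0.12; adjusted p = 0.286). The lowest atrial library for both was that of nanoplastics mouse 1, which was also the library richest in atrial muscle markers. Pnpla2 was the sixth, with a positive change of 0.36 ± 0.17 (adjusted p = 0.379).

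Between the ventricles 25 of 32 genes had a negative and 7 a positive change, right over left, with a median of -0.08 against 0.00 over all genes. None was called by edgeR or DESeq2, 3 had an unadjusted p under 0.05 (Acadm, Hadhb and Plin5, all lower in the right ventricle), against 5.02% of all genes, and 0% of the 5382 genes tested were called in either direction. Acadm ran between 1134 and 2592 CPM with a median of 1804 in 6 right ventricular libraries, against 1751 to 2534 CPM with a median of 2056 in 7 left ventricular libraries (-0.25 ± 0.08, SE, log2; adjusted p = 0.775). Between atrial and right ventricular sections 14 of 31 changes were positive and 17 negative, none was called by either tool, 1 had an unadjusted p under 0.05 (Etfb, -0.34), against 6.41% of all genes, and of all 5072 genes 0.0394% were called higher and 0.0197% lower.

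**Figure D4:**
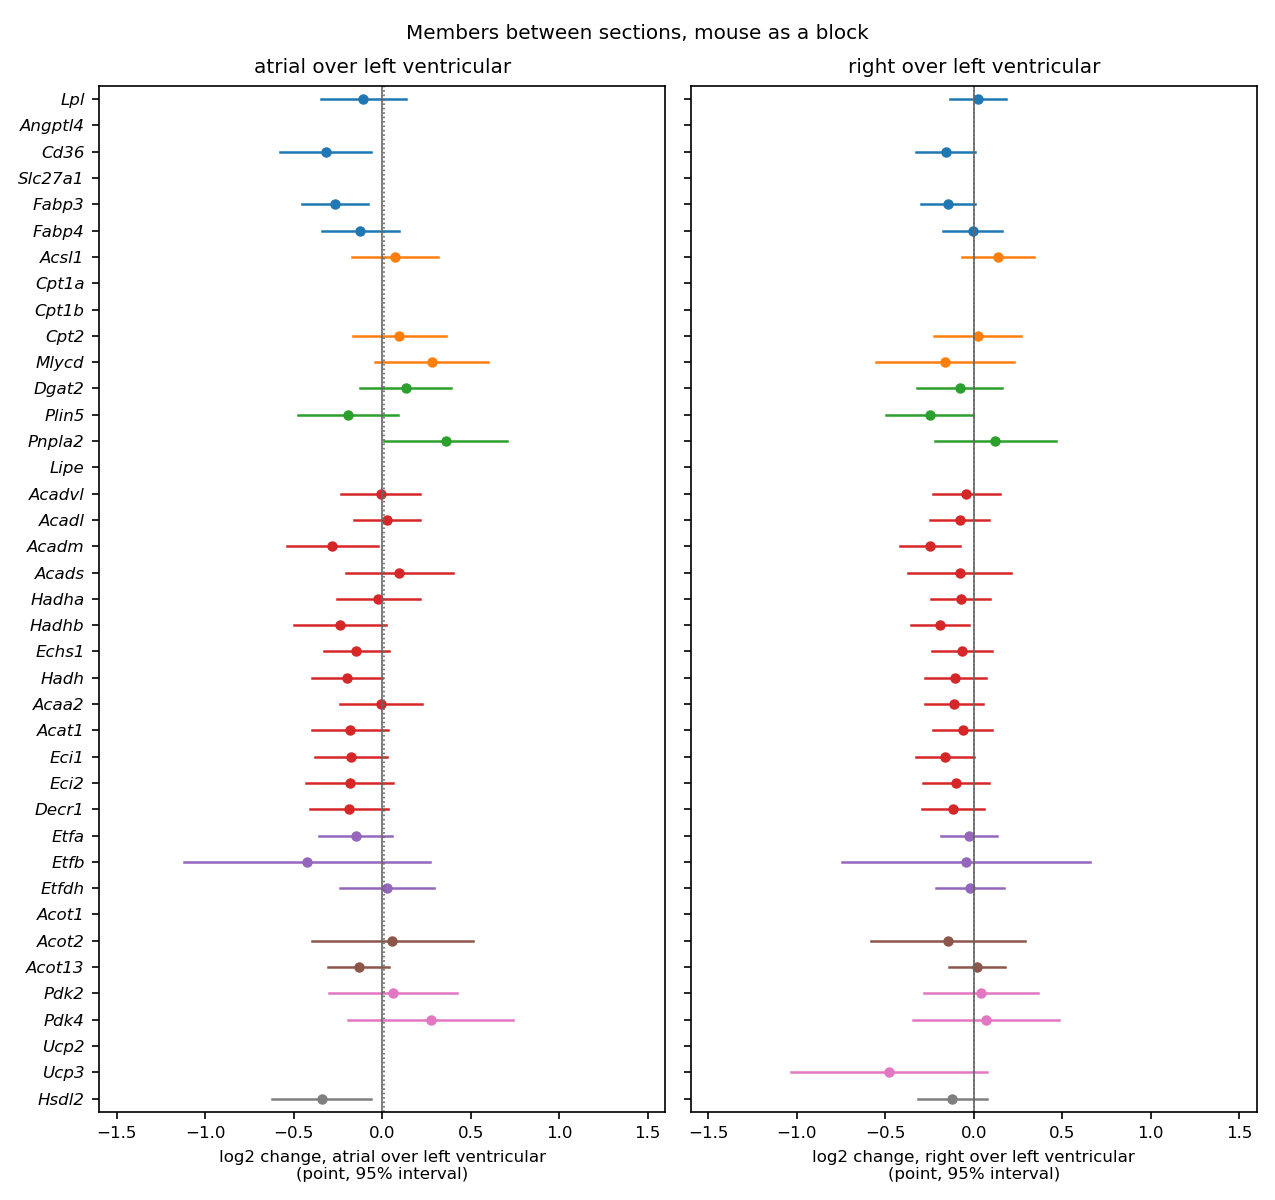
Change of each gene between sections of the same mice, on a log2 scale with the 95% interval: atrial over left ventricular (left panel) and right over left ventricular (right panel). Genes with no point had too few counts to test, and 20 of 31 points in the left panel and 25 of 32 in the right panel lie below 0.

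Many of the genes varied together across libraries. In the 26 genes with a mean of at least 50 counts, with the mean of each section and treatment removed, the median correlation over 325 pairs in 20 libraries was 0.308, and 78.5% of pairs were positive. Over all 2033 genes at that depth the median was 0.0153 and 51.4% of pairs were positive. These are descriptions over libraries that share mice and scaling, with no test.

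The closest pairs were Acaa2 with Etfdh (0.929), Acadm with Acat1 (0.901), Acadl with Hadha (0.896), Cd36 with Hsdl2 (0.894) and Acadvl with Hadh (0.85). Acot13 ran against several of these, at -0.758 with Acaa2, -0.705 with Etfdh and -0.675 with Acadvl. The longest annotated transcript has 721 nt for Acot13 and 3740 nt for Etfdh, and the part of transcript length in these correlations was not tested.

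The averages of each mouse over its sections made up a median of 50% of the spread of these 26 genes and 54.5% for all genes at that depth. Such averages also carry the noise of single libraries, so part of each share arises without any difference between mice. Dgat2 (81.6%), Acot13 (79.6%), Acadl (75.3%) and Cpt2 (73.7%) had the highest shares, and Fabp4 (17.6%) and Fabp3 (19.4%) the lowest. Cpt2 deviated by 0.78 (log2) in nanoplastics mouse 4 and by -0.54 in nanoplastics mouse 3. Control mouse 3 stood above its group in Etfdh (0.40), Acaa2 (0.35) and Hadha (0.31), where control mouse 1 stood below it by -0.34, -0.36 and -0.10.

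**Figure D5:**
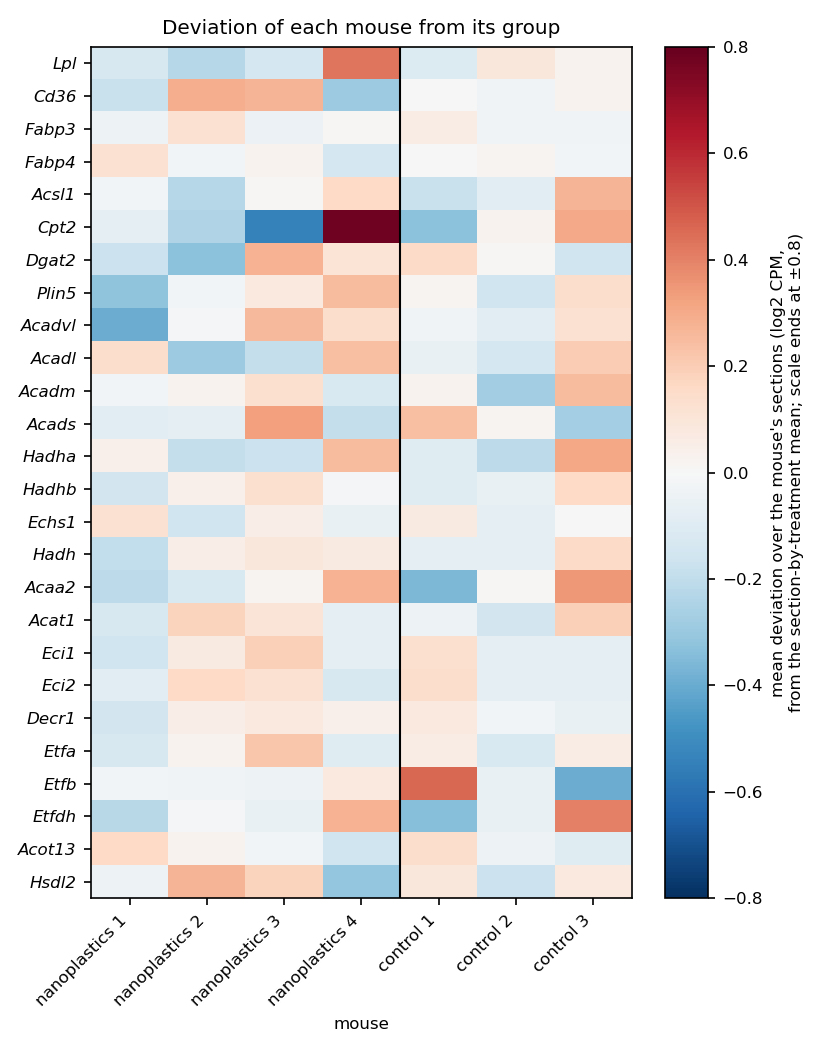
Deviation of each mouse from the mean of its section and treatment, averaged over its sections, in log2 CPM, for the 26 genes with a mean of at least 50 counts; nanoplastics mice stand left of the line and control mice right of it. Red marks mice above and blue mice below their group, and Cpt2 in nanoplastics mouse 4 has the largest deviation (0.78).

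All 39 genes together took 2.48 ± 0.107% of counts in nanoplastics hearts and 2.69 ± 0.171% in control hearts (SD, n = 4 and 3). The sections contributed unevenly to the sums: atrial libraries made up 43.9 ± 17.5% of the sum in nanoplastics mice and 27.2 ± 13.2% in control mice, and right ventricular libraries 14.3 ± 11.5% in nanoplastics mice and 39.1 ± 4.22% in control mice. Their part in the whole heart values was not tested. In sums over the ventricles alone 36 of the genes were tested and again none was called, with 21 positive and 15 negative changes and a smallest adjusted p of 0.117.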

How the data were processed

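The authors deposited unnormalized counts by gene symbol for 20960 genes in 21 libraries, and every column was matched to its sample through the library names in the labels. Oligo-dT capture, barcoding at the 5' end by template switching, pooling and sequencing as 150 bp pairs are per the labels' protocols. STAR, an aligner, is listed with no version in the submitters' processing notes. Not given in the sources used here are the build, the annotation, the counting program, strand use and the use of molecular identifiers. Counting without molecular identifiers, if done, would make reads of the same molecule count more than once, so counting error is a lower limit. Because strand use is not given, Fabp3, Acadvl, Hadha, Eci2, Ucp3 and other genes that overlap an antisense gene are uncertain.

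The analysis ran in R 4.3.3, with edgeR 4.0.16 (filterByExpr defaults, trimmed mean of M-values scaling, robust quasi-likelihood test), limma 3.58.1 and DESeq2 1.42.0. P-values were adjusted by Benjamini-Hochberg over all genes of a comparison and called at 0.05. Whole heart values sum the 3 sections of a mouse. Section comparisons had the mouse as a block, because the sections come from the same animal: deviations of sections of the same mouse had a median correlation of 0.33, against -0.177 for other mice of the group. Replicate numbers of the treatment groups name different animals, so those comparisons had no block. The right ventricular library of 4662 counts was left out of fits on single right ventricular libraries. Transcript lengths are those of the longest GENCODE M21 transcript. The edgeR test, and DESeq2 in the whole heart, were run on simulated counts. Those counts had no difference between mice and no trend on transcript length, so the check does not cover either. P-values of the treatment comparisons weigh a difference against the spread between these mice. Those of comparisons with the mouse as a block weigh it against the spread between sections within a mouse.

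Named genes were those called in a comparison, those with an unadjusted p under 0.05 in the whole heart, and 16 fixed genes; other pathway genes were named where called, with 4 fixed ones. Other names were chosen after their values were seen. The 39 genes and all lists were chosen with earlier results of these data known. Alternatives were another scaling, filter, tool or block, removal of the length trend, other sums of sections and leaving out each mouse. Over 190 pairs of libraries without the shallow one, the lowest chi-square per degree of freedom was 1.731; with it the lowest of 210 pairs was 1.041, at its 4662 counts.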

Additional observations from a re-analysis of the deposited data

Results flagged for a closer look

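Groups of 3 are not tested in this way, so the rule was applied to the nanoplastics groups of 4 mice in the whole heart, the atrial section and the left ventricular section, and to no control group. In 7 of 101 such groups, 1 library or mouse stood apart from the others by more than Dixon's 95% critical value; chance flags about 1 group in 20. Cd36 was low in the left ventricle of mouse 4, at 1006 CPM against 1509 to 1587 CPM in the others. Acadvl was high in the left ventricle of mouse 3, at 535.7 CPM against 441.2 to 451.0 CPM. Acads was high in the atrial section of mouse 3, at 51.9 CPM against 35.5 to 38.0 CPM. Hadhb stood at 1108 CPM in the whole heart of mouse 3, where the others were all at 1040 CPM, and at 532.2 CPM in the atrial section of mouse 1, against 1026 to 1096 CPM. Acot2 was high in the whole heart of mouse 4, at 22.1 CPM against 12.4 to 13.1 CPM. Pdk4 was low in the left ventricle of mouse 2, at 10.97 CPM against 19.7 to 20.5 CPM.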

How the results depend on the processing

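No gene that was called, here or under an alternative, changed direction. Of the alternative values for single genes, 3179 kept their side of the threshold, 265 moved by more than 1 SE without a call, 42 lost a call and 13 gained one. Among the 3179, values not called in either fit also kept their size within 1 SE, and values called in both were not held to a size. For the 39 genes the count of calls in the whole heart, 0, became 3 with library totals (Acads -0.62, Dgat2 -0.56 and Etfa -0.50). Over all genes 43 were called higher and 754 lower in that setting. The count was 1 with no filter (Angptl4, 1.18), where 190 of all genes were called higher and 129 lower. With the mouse number as a replicate block it was 1 (Acot13, 0.41), against 266 higher and 47 lower over all genes. With 20 libraries and the mouse as a random block it was 1 (Acot13, 0.35), against 322 higher and 160 lower over all genes. The replicate numbers do not pair the mice (correlations of 0.0659, 0.0385 and -0.0848). Library totals moved the median change of all genes to -0.27, and the 37 genes then had 13 positive and 24 negative changes. In the right ventricle the count was 1 with library totals (Etfa, -0.75), where 9 of all genes were called higher and 142 lower. Leaving out a mouse gave 0 to 3 there. Between atrial and left ventricular sections the count was 2 with no filter (Cd36 -0.37 and Fabp3 -0.32), against 94 higher and 21 lower over all genes. Between the ventricles it was 1 in nanoplastics mice alone (Acadm, -0.41), against 10 higher and 3 lower over all genes. The 6 calls among other pathway genes became 12 with library totals, 10 with 20 libraries, 1 with the length trend removed and 0 with atrial and left ventricular sections only. Calls over all genes were 39 higher and 21 lower with the length trend removed, and 17 and 7 with those 2 sections. In those 2 sections the changes were Ppara -1.22, Bdh1 -0.69, Acss1 -0.79, Hibadh -0.52, Acaa1a -0.57 and Ech1 0.43. Leaving out a mouse gave 0 to 4, with 0 without control 2, 3 without control 1, and 1 without control 3, nanoplastics 1 or nanoplastics 2. Ppara was called in 15 of 17 alternatives, Bdh1 in 13, Acss1 in 12, Hibadh in 11, Acaa1a in 10 and Ech1 in 9 of 19. The cause of these moves was not tested. Cpt1b and Lipe have too few counts for the filter and were fitted only with no filter, without a call.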
